A study of Mus musculus with 18 samples.

Results

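The liver X receptor (LXR) agonist GW3965 was added to differentiated mouse cultures in a pair of experiments, one read at day 16 and one at day 17, and the 2 responses are compared here gene by gene. The quantity is the log2 ratio of day 17 GW3965 over day 17 minus the log2 ratio of day 16 GW3965 over day 16, so a positive value means a response that was more positive at day 17. It rests on 8 of the 18 libraries of the series, which are 2 in each of 4 groups of 9, and on the 17166 of 23420 listed genes with enough reads to test. The series measured RNA by sequencing in E14 cells, a wild type line of mouse embryonic stem (ES) cells, and in cultures differentiated from that line.

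By the growth protocol shared by the series, the cells of all 4 groups came from embryoid bodies grown without leukemia inhibitory factor, which received 5 µM all-trans retinoic acid over 4 days and were then dissociated and plated on laminin and poly-L-ornithine in N2 medium. The day 16 group and the day 17 group had no GW3965, and their treated partners had GW3965 at 1 µM. Ligands were given against a dimethylsulfoxide vehicle, although the labels of these 4 groups name no vehicle. How long GW3965 was present is stated only in the names of the deposited files, which give 24 h for the day 17 libraries and ligand from day 8 for the day 16 libraries. Time in culture and length of exposure therefore changed together and cannot be told apart, nor can either be told apart from the experiment in which each pair was grown. The labels call the cell type embryonic stem cells in every sample and name no separate cultures, so p-values measure the spread between libraries, which may be technical.

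LXRs are nuclear receptors that bind DNA as partners of retinoid X receptors and are activated by oxidised cholesterol derivatives, and GW3965 is a synthetic agonist of them. They switch on genes that export cholesterol, that move it in lipoproteins and that make fatty acids, the last partly through the transcription factor SREBP-1c. A related factor, SREBP-2, drives cholesterol synthesis and uptake and is held inactive while cholesterol in the endoplasmic reticulum is plentiful. In the brain, cholesterol is made locally and carried from astrocytes to neurons on apolipoprotein E.

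Total gene counts ran from 16748556 to 34083666 per library. Neuronal, astrocyte and mesenchymal markers were present in all 8 libraries, while 4 of 12 microglia and leukocyte markers had enough reads to test. The second day 16 GW3965 library stood apart: its Rn45s level, a ribosomal RNA precursor, was 16490 CPM (counts scaled to library size) against 1210 in its partner and 898 to 1955 in the other 6. The chi-square per gene between these 2 libraries was 40.4, and 14.4 with Rn45s left out. It was 4.68, 5.53 and 6.89 in the other groups compared, with Rn45s kept. Reads listed as aligned more than once made up 31.84 to 33.53% of the day 17 files, and no such reads were listed in the others. Values are given in CPM, scaled by the trimmed mean of M values (TMM).

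The 2 responses differed in a large share of the genes. With edgeR's quasi-likelihood test and Benjamini-Hochberg adjustment, the response difference passed an adjusted p of 0.05 in 6356 of 17166 genes (37%), of which 3439 (20%) were more positive at day 17 and 2917 (17%) less so. In 1924 of them the difference was 2-fold or more. Within the experiments, GW3965 changed 5446 genes at day 16 (31.7%), with 2235 higher (13%) and 3211 lower (18.7%). Without the second day 16 GW3965 library, 3589 genes were changed at day 16. At day 17 it changed 6044 genes (35.2%), with 2961 higher (17.2%) and 3083 lower (18%). The median over all genes tested was 0.03 for the difference, -0.03 for the day 16 response and 0.02 for the day 17 response.

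Among genes changed at both days, opposite changes outnumbered like ones. Of the genes changed at day 16, 44.9% were also changed at day 17, which is 40.4% of the genes changed at day 17. Of these 2444 genes, 961 moved the same way (298 up and 663 down) and 1483 moved in opposite directions. The opposite movers were 978 genes that fell at day 16 and rose at day 17 and 505 genes that did the reverse. With 1 library left out at a time, between 994 and 1413 genes moved in opposite directions, the lowest being without the second day 16 GW3965 library. Over the 17166 genes, which share no library between the 2 responses, the Pearson correlation of the responses was -0.12 and the Spearman correlation -0.12.

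**Figure D1:**
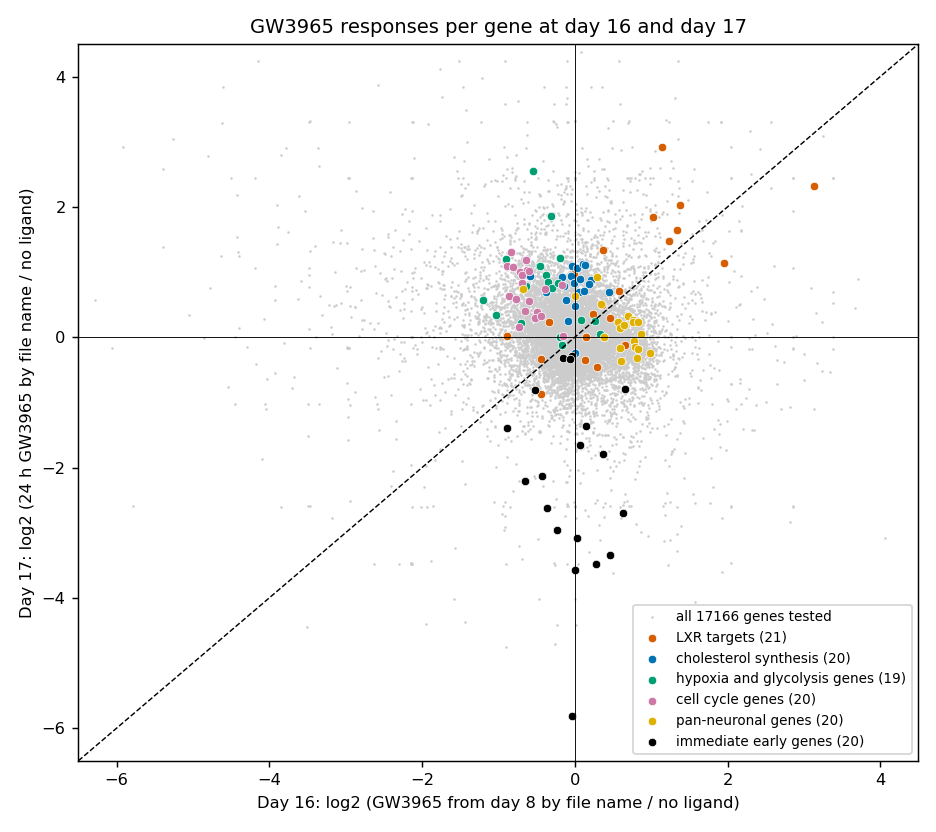
Each grey point is 1 of the 17166 genes tested, placed by its log2 response to GW3965 at day 16 (x axis) and at day 17 (y axis); 28 genes lie outside the axes and the dashed line marks equal responses. Coloured points are members of 6 gene lists: LXR targets lie mostly in the upper right, cholesterol synthesis genes above 0 near the vertical axis, hypoxia and cell cycle genes in the upper left, pan-neuronal genes to the right near the horizontal axis, and immediate early genes below it.

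The receptors themselves were expressed in both experiments. Nr1h2, which encodes LXR-beta, stood at 54.4 and 56.2 CPM at day 16, 46.6 and 44.2 with ligand, 39.8 and 38 at day 17 and 49.6 and 44 with ligand. Its response difference was 0.55 ± 0.20 (log2 ± SE; edgeR adjusted p = 0.0366), and neither single response passed the test. That call was lost on leaving out any 1 library except the first day 16 GW3965 or the second day 17 GW3965 library, with differences of 0.46 to 0.58. Nr1h3, which encodes LXR-alpha, stayed at or below 1.24 CPM in all 8 libraries, with a difference of 0.98 (95% interval -0.18 to 2.14; edgeR adjusted p = 0.18). Without the first day 17 library, the Nr1h3 difference was 2.08 and passed the test (edgeR adjusted p = 0.0293).

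The cholesterol exporters responded at both days, and more at day 16. Abca1, the transporter that loads cholesterol and phospholipid onto apolipoproteins, lies at chr4:53030787-53159895 in mm10. It went from 92.6 and 86.9 CPM to 361 and 334 at day 16 and from 155 and 153 to 365 and 313 at day 17. The treated levels of the 2 days overlapped, while the ligand-free level was higher at day 17. Its rise was thus 3.88-fold at day 16 and 2.2-fold at day 17, a difference of -0.82 ± 0.11 (edgeR adjusted p = 7.14e-06).

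Abcg1 (chr17:31057675-31117988), a transporter that passes cholesterol on to lipoprotein particles, went from 5.56 and 5.4 CPM to 44.8 and 50.9 at day 16. At day 17 it went from 4.31 and 5.37 to 24.6 and 23.3 CPM. Here the ligand-free levels of the 2 days were close and the treated levels did not overlap. The rises were 8.75-fold and 5.02-fold, and the difference was -0.80 ± 0.19 (edgeR adjusted p = 0.00273).

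Srebf1, Scd1, Scd2 and Fasn, targets that control or carry out fatty acid synthesis and desaturation, went the other way, with larger rises at day 17. Srebf1 (chr11:60199089-60222581), which encodes SREBP-1, stood at 132 and 142 CPM at day 16 and 358 and 352 with ligand, and at 88.1 and 79.4 CPM at day 17 and 349.9 and 337 with ligand. Its treated levels lay close together on the 2 days, and its ligand-free level was lower at day 17. The rises of 2.6-fold and 4.09-fold differed by 0.66 ± 0.16 (edgeR adjusted p = 0.00356).

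Scd1 (chr19:44394455-44407879), a desaturase that makes monounsaturated fatty acids, had the largest positive difference among the LXR targets. Its levels were 134 and 119 CPM at day 16, 288 and 268 with ligand, 48.7 and 46.5 at day 17 and 291 and 429 with ligand. Both ligand-free day 17 libraries were below every other library, and the treated libraries of day 17 were above those of day 16. Scd1 rose 2.2-fold at day 16 and 7.55-fold at day 17, a difference of 1.78 ± 0.16 (edgeR adjusted p = 5.88e-08). Scd2, its brain paralog, went from 1550 and 1475 CPM to 3124 and 3034 at day 16 and from 1156 and 1174 to 3968 and 4411 at day 17, and its rises of 2.04-fold and 3.6-fold differed by 0.82 ± 0.077. Fasn, fatty acid synthase, went from 528 and 501 CPM to 709.7 and 625 at day 16 and from 261 and 239 to 620.3 and 638 at day 17. Its day 17 ligand-free libraries were below all others, and its rises of 1.3-fold and 2.52-fold differed by 0.96 ± 0.10 (edgeR adjusted p = 7.89e-07).

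Other targets responded at both days with no difference past the test. Mylip, a ubiquitin ligase that limits lipoprotein uptake, went from 16.3 and 14.5 CPM to 36.6 and 35.7 at day 16 and from 16 and 14.9 to 41.9 and 44.6 at day 17. Its rises of 2.35-fold and 2.79-fold differed by 0.25, with a 95% interval from -0.06 to 0.56. Lpcat3, which puts polyunsaturated chains into phospholipids, rose 1.28-fold and 1.41-fold (difference 0.13, interval -0.04 to 0.30). Acaca, which makes malonyl-CoA for fatty acid synthesis, rose 1.18-fold and 1.28-fold (difference 0.11, interval -0.07 to 0.30). Pltp, a phospholipid transfer protein, fell 1.36-fold at day 16 and 1.26-fold at day 17 (difference 0.12, interval -0.15 to 0.39).

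Apoe, which encodes apolipoprotein E, stood at 90.6 and 101 CPM at day 16 and 79.1 and 73 with ligand. At day 17 it stood at 170.2 and 140.3 CPM without and 195 and 170.5 with ligand. Neither response passed the test, at -0.33 and 0.23 on the log2 scale, although their difference of 0.57 did (edgeR adjusted p = 0.0168). It did not pass without the second day 16, the second day 16 GW3965, the second day 17 or the first day 17 GW3965 library (0.44 to 0.51), or with DESeq2 (adjusted p = 0.0614).

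Counts of list members are given below for the 2 responses and their difference; those of 3 or fewer moved by at most 2 with 1 library left out. Of the 21 LXR targets tested, 12 rose and 3 fell at day 16, and 10 rose and 3 fell at day 17. In the difference, 5 were more positive and 4 less positive at day 17, with a median of 0.13 against 0.03 over all genes. Of 22 fatty acid synthesis genes, 9 were more positive at day 17 and 0 less so, with a median difference of 0.26. At an unadjusted p of 0.05, 2 members (Fads3 and Mid1ip1) were less positive, and 2 were called so with DESeq2 and 1 with limma-voom. Over all genes tested, 20% were more positive and 17% less so. At day 16, 13% of all genes rose and 18.7% fell, and at day 17, 17.2% rose and 18% fell. The list counts here and below are to be read beside these shares. Acacb, the acetyl-CoA carboxylase of mitochondria, was the member with the second largest difference, at 1.60 ± 0.26, falling 1.38-fold at day 16 and rising 2.2-fold at day 17. At day 16, 9 fatty acid genes rose, and 5 without the second day 16 library.

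A further gene set came from libraries outside the 4 groups. In undifferentiated ES cells, 24 h of GW3965 raised 53 genes (0.309% of those tested), and these were followed in the differentiated cultures. Of the 53, 23 rose and 4 fell at day 16 (median 0.18 on the log2 scale), and 35 rose and 5 fell at day 17 (median 0.44). Among all genes tested, 13% rose and 18.7% fell at day 16, and 17.2% rose and 18% fell at day 17. The difference was more positive at day 17 in 19 of the 53 and less positive in 6, beside 20% and 17% of all genes. Its median was 0.15 against 0.03 over all genes. The estimate was larger at day 17 in 36 and larger at day 16 in 17. GW3965 changed 55 genes in ES cells (0.32%), of which 2 fell (0.0117%), and 28 to 44 with 1 library left out, so the set itself depends on single libraries.

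**Figure D2:**
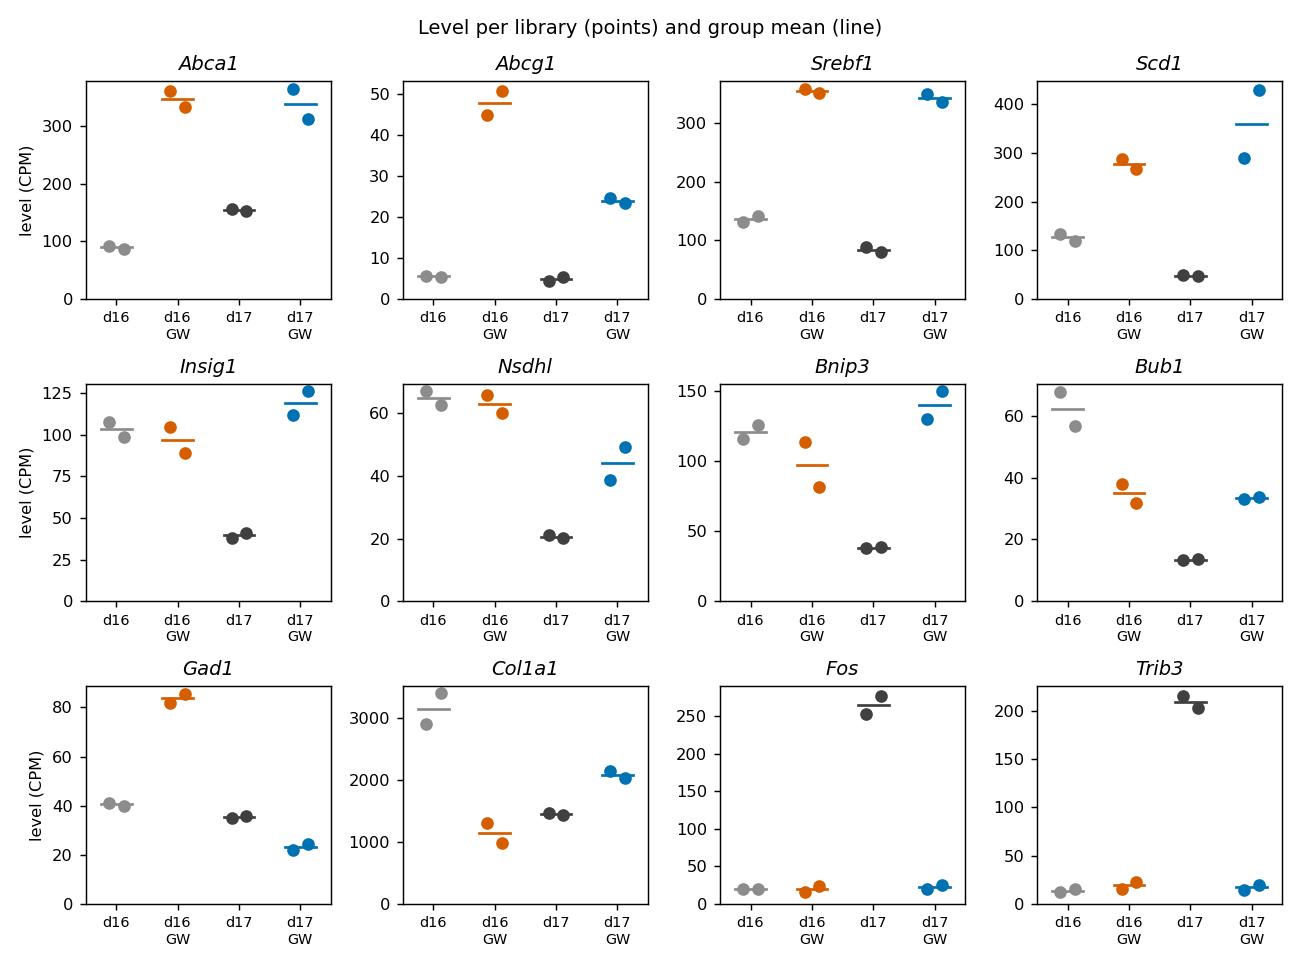
Levels of 12 genes in CPM (linear y axes from 0), with 1 point per library and a line at the mean of each group; d16 and d17 are the ligand-free groups and GW marks GW3965. For Abca1 and Abcg1 both treated groups stand above both ligand-free groups, for Insig1, Nsdhl and Bub1 the day 17 ligand-free libraries are the lowest, for Gad1 the day 16 treated libraries are the highest, and for Fos and Trib3 the day 17 ligand-free libraries are far above the other 6.

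Cholesterol synthesis genes responded almost throughout at day 17 and little at day 16. Of 20 tested, 18 had a more positive response at day 17 and 0 a less positive one (1 at an unadjusted p of 0.05, 0 with DESeq2 or limma-voom), with a median difference of 0.83. At day 16, 1 rose and 3 fell around a median of 0.00, and at day 17, 19 rose and 1 fell around a median of 0.82. Summed over the list, the level was 2303 and 2191 CPM at day 16 and 2381 and 2137 with ligand. At day 17 the sums were 920.4 and 955 CPM without and 1509 and 1770 with ligand. Both day 17 groups were thus below both day 16 groups, and 19 of 20 genes were lower in the day 17 ligand-free group than in its day 16 counterpart, by a median of -1.36 on the log2 scale. Without the second day 16 GW3965 library, 17 genes were more positive at day 17.

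Lss closes the sterol rings and Nsdhl helps to remove methyl groups from them. Nsdhl stood at 67.1 and 62.5 CPM at day 16, 65.8 and 59.9 with ligand, 21.1 and 20.1 at day 17 and 38.8 and 49.2 with ligand, a difference of 1.14 ± 0.14. Lss stood at 87.2 and 73.4, 79.5 and 62.9, 20.9 and 24.1 and 38 and 47.1 CPM in the same order, a difference of 1.10 ± 0.15. In both genes day 16 libraries overlapped with and without ligand, and day 17 libraries did not. The promoters of these 2 genes are shown as examples of a group that moved together, because SREBPs act together with NF-Y, which binds the letters CCAAT. Capitals mark CCAAT or its reverse complement ATTGG in windows from 250 bases before to 50 after the gene's start (RefSeq, GRCm38.p6).
Nsdhl, chrX:72918271-72918570, plus strand: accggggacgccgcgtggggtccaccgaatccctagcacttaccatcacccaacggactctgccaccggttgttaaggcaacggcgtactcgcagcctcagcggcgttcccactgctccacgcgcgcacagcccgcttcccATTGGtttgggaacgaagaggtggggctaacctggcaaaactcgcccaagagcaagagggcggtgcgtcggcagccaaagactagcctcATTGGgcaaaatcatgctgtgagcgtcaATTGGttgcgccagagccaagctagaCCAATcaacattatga
Lss, chr10:76531355-76531654, plus strand: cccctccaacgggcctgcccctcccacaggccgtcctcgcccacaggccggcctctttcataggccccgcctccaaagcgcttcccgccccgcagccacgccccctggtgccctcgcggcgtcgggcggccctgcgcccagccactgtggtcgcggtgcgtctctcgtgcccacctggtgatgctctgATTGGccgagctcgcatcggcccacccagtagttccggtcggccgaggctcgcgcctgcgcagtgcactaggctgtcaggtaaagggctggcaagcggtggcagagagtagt
The Nsdhl window held 4 matches and the Lss window 1. Searched on both strands, CCAAT occurred in 14 of the 15 cholesterol synthesis genes with a window (93.3%), and in 41.1% of all 27025 genes of the promoter table. That table is not limited to the genes tested here.

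A regulator of sterol supply followed the same order. Insig1 (chr5:28071363-28078662), which holds SREBPs in the endoplasmic reticulum and is itself an SREBP target, stood at 108 and 98.6 CPM at day 16 and 105 and 89.2 with ligand. It stood at 38 and 41 CPM at day 17 and 112 and 126 with ligand. The day 17 ligand-free libraries were below the other 6, and the 3.02-fold rise at day 17 stood beside a day 16 response of -0.09 that did not pass the test (difference 1.68 ± 0.11; edgeR adjusted p = 1.71e-09). Of 19 genes of SREBP control and lipoprotein uptake, 9 were more positive and 2 less positive at day 17, with a median of 0.24.

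Other lipid genes showed no such common direction. Among 26 phospholipid and triglyceride genes, 3 were more and 5 less positive at day 17 (median 0.01, or 0.04 without the second day 16 GW3965 library), and the 5 became 2 without the second day 16 or the second day 16 GW3965 library, and 3 without either day 17 library or the first day 17 GW3965 library. Acsl1, an acyl-CoA synthetase, rose 1.47-fold at day 16 and did not pass the test at day 17 (difference -0.79). Plin3, a lipid droplet coat protein, fell 1.39-fold at day 16 and rose 1.35-fold at day 17. Among 19 PPAR target and fatty acid oxidation genes, 3 were more and 3 less positive, with 1 more positive without the first day 17 library and 5 less positive without the first day 16 GW3965 library. Of 9 oxysterol enzymes (median 0.17, or 0.26 without the second day 16 GW3965 library), 3 were more positive and 0 less so (2 at an unadjusted p of 0.05, 0 with DESeq2 or limma-voom), among them Soat1, which esterifies cholesterol, at 0.55 ± 0.098.

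Among 21 apolipoprotein and lipid transfer genes, 7 were more and 4 less positive at day 17 (median -0.11, or 0.03 without the second day 16 GW3965 library). These counts fell to as few as 4 and 0, the 7 to 4 without the second library of day 16, of day 16 GW3965 or of day 17, or the first of day 17 GW3965, and the 4 to 0 without the second of day 16 or the first of day 17 and to 2 without the first of day 17 GW3965. Lipg, endothelial lipase, rose 3.19-fold at day 17 with a difference of 2.16 ± 0.36. Of 21 receptors and cofactors of the LXR and RXR group, 7 were more and 4 less positive (median 0.43), and without the second day 17 library 2 were less positive. Rara, which encodes retinoic acid receptor alpha, fell from 71.4 and 74.3 CPM to 55.1 and 53.3 at day 16 and rose from 57.9 and 53.9 to 83.6 and 74.7 at day 17.

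Immediate early genes were high in the ligand-free day 17 libraries. These genes, transcribed within minutes of a stimulus, summed to 536 and 552 CPM at day 16 and 467 and 571 with ligand. The sums were 2015 and 1960 CPM at day 17 and 692 and 717 with ligand. All 20 genes had a higher mean in the day 17 than in the day 16 ligand-free group, and in 14 both day 17 ligand-free libraries were above the other 6 by more than the range of those 6 on the log2 scale, which 2.24% of all genes met. Of the 20, 15 had a less positive response at day 17 and 0 a more positive one (also 0 at an unadjusted p of 0.05, with DESeq2 or with limma-voom), with a median of -1.95. GW3965 lowered 19 at day 17, and at day 16 raised 2 and lowered 2.

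Fos (chr12:85473890-85477273), a subunit of the AP-1 transcription factor, stood at 20.1 and 19.1 CPM at day 16, 15.8 and 23.6 with ligand, 252 and 277 at day 17 and 19.7 and 24.6 with ligand. The other 3 groups overlapped, and the day 17 ligand-free libraries were far above them. The difference was -3.58 ± 0.19 (edgeR adjusted p = 2.21e-10). Fosb, its relative, stood at 67.6 and 69 CPM in the day 17 ligand-free libraries and at 0.998 to 1.71 CPM in the other 6, the most negative difference of all named genes at -5.77 ± 0.46. Npas4, a neuronal activity factor, stood at 24.9 and 29 CPM in those libraries and 2.35 to 4.68 elsewhere, and Egr3 at 8.84 and 5.31 CPM against 0.248 to 0.804.

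Stress response genes leaned the same way, but less uniformly. They summed to 3038 and 3177 CPM at day 16 and 2675 and 2723 with ligand. At day 17 the sums were 4344 and 4336 CPM without and 3146 and 3233 with ligand. Of the 18 genes, 14 had a higher mean in the day 17 than in the day 16 ligand-free group. In 5, both day 17 ligand-free libraries were above the other 6 by more than the range of those 6. Of 18, 11 had a less positive response at day 17 and 3 a more positive one, with a median of -0.67, and 13 fell and 1 rose with GW3965 at day 17. At day 16, 6 rose and 4 fell, but 1 rose and 6 fell without the second day 16 GW3965 library, and 3 rose without either day 16 library. Trib3 (chr2:152337422-152344032), a pseudokinase induced by amino acid and endoplasmic reticulum stress, stood at 11.9 and 14.9 CPM at day 16, 15.4 and 22.9 with ligand, 216 and 203 at day 17 and 14.7 and 19.4 with ligand. The day 17 ligand-free libraries were far above the rest, and the difference was -4.12 ± 0.23 (edgeR adjusted p = 2.61e-10). Atf3, a stress-induced factor of the same pathway, stood at 7.9 and 8.54, 8.96 and 16.6, 50.7 and 42 and 6.61 and 7.7 CPM in that order. Chac1, which breaks down glutathione, stood at 13.2 and 11.8, 16.1 and 29.2, 51.5 and 44.7 and 11.6 and 14.3 CPM.

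Genes of hypoxia and glycolysis were low in the same ligand-free day 17 libraries. Their summed level was 4088 and 3931 CPM at day 16 and 3368 and 2971 with ligand, and 1790 and 1734 CPM at day 17 and 2779 and 3210 with ligand. None of the 19 genes had a higher mean in the day 17 than in the day 16 ligand-free group, and the median gap was -1.32 on the log2 scale, against 0.09 between the treated groups. The response was more positive at day 17 in 14 and less positive in 0 (1 at an unadjusted p of 0.05 and with DESeq2, 0 with limma-voom), with a median difference of 1.33. At day 17, 14 rose and 0 fell, and at day 16, 2 rose and 11 fell, or 6 fell without the second day 16 GW3965 library.

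Slc2a1, the main glucose transporter, went from 323 and 261 CPM to 160.3 and 153 at day 16 and from 96.4 and 81.9 to 184 and 227 at day 17, a difference of 2.10 ± 0.20 (edgeR adjusted p = 1.13e-07). Its 2 responses were opposite, and at neither day did treated and ligand-free libraries overlap. Ankrd37, a target of hypoxia-inducible factors, stood at 10.3 and 13.1 CPM at day 16, 8.41 and 7.78 with ligand, 1.24 and 1.75 at day 17 and 7.14 and 10.01 with ligand (difference 3.09 ± 0.33). Bnip3, a mitophagy gene induced by hypoxia, stood at 116 and 126, 114 and 81.5, 37.7 and 39.1 and 130 and 150 CPM in the same order (difference 2.17 ± 0.18); 47.2% of its 50-base stretches occur in another gene. Ndufa4l2, another such target, rose 6.55-fold at day 17.

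The promoters of Ankrd37 and Bnip3 are shown because hypoxia-inducible factors bind the letters ACGTG. Capitals mark ACGTG or its reverse complement CACGT, with overlapping matches joined, in windows built as before (RefSeq, GRCm38.p6).
Ankrd37, chr8:45999801-46000100, minus strand: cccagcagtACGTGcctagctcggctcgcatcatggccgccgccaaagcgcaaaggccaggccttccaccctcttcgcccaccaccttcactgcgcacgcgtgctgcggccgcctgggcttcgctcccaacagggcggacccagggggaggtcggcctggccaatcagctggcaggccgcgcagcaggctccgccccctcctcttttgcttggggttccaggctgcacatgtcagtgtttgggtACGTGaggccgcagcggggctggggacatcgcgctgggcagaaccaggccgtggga
Bnip3, chr7:138909457-138909756, minus strand: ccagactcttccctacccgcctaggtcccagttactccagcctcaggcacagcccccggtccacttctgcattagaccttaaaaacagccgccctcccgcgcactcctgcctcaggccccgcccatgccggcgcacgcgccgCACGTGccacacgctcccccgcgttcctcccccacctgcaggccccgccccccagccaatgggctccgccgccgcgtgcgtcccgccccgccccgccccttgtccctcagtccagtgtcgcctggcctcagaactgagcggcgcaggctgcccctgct
The Ankrd37 window held 2 separate matches, and the 2 matches of the Bnip3 window overlapped in the palindrome CACGTG, which other factors also bind. ACGTG, searched on both strands, occurred in 13 of 18 genes of the hypoxia list with a window (72.2%) and in 21.8% of all genes in the table, again not limited to those tested. A match is a stretch of letters and no measure of binding.

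Cell cycle genes changed in opposite directions at the 2 days. Their summed level went from 2850 and 2603 CPM to 2028 and 1717 at day 16 and from 1817 and 1773 to 2452 and 2590 at day 17. At day 16, 18 of 20 fell and 0 rose, and at day 17, 18 rose and 0 fell. These counts of 0 were also 0 at an unadjusted p of 0.05, with DESeq2 and with limma-voom. The difference was more positive at day 17 in 19, with a median of 1.43, and in 19 without the second day 16 GW3965 library. Bub1 (chr2:127801122-127831865), a kinase of the mitotic checkpoint, went from 67.8 and 56.9 CPM to 38 and 31.9 at day 16 and from 13.3 and 13.8 to 33.1 and 33.6 at day 17. Its treated levels overlapped between the days while the ligand-free levels lay far above and far below them. The difference was 2.13 ± 0.13 (edgeR adjusted p = 6.36e-10). Plk1, a mitotic kinase, had a difference of 1.98 ± 0.23, and Ccnb2, a cyclin of mitosis, of 1.88 ± 0.14.

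**Figure D3:**
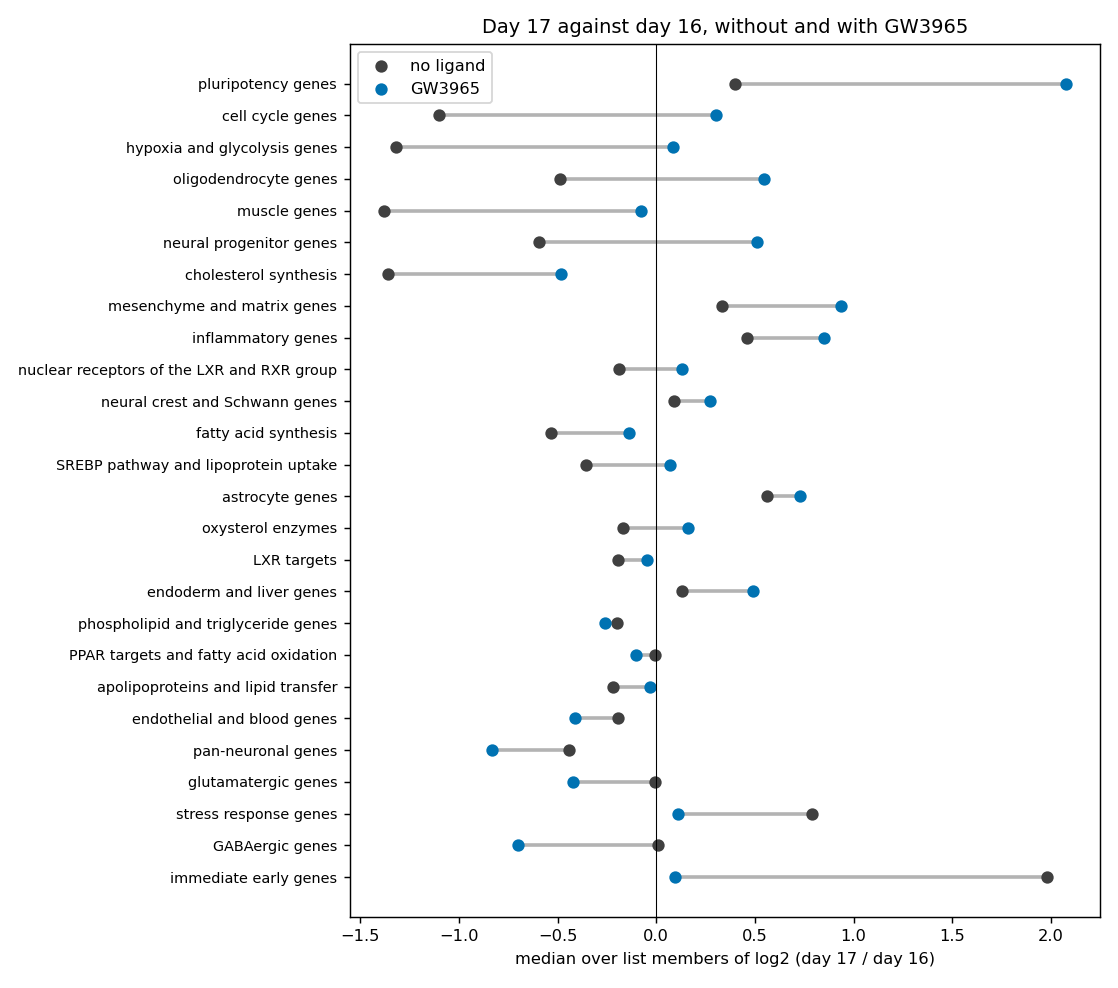
For each gene list, the median over its members of log2 (day 17 / day 16) is plotted without ligand (dark points) and with GW3965 (blue points). Immediate early genes were 1.98 higher at day 17 without ligand and 0.09 with it, hypoxia genes -1.32 and 0.09, cell cycle genes -1.10 and 0.30, and pluripotency genes 0.40 and 2.08.

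Where 1 of the 4 groups stood apart, it was most often the ligand-free group of day 17 or the treated group of day 16. Standing apart is read from the same libraries as the difference, so it describes these genes and is no separate test. Among the 6356 genes with different responses, both day 17 ligand-free libraries were apart from the other 6, by more than the range of those 6, in 563 (8.86%), both day 16 treated libraries in 510 (8.02%), both day 17 treated libraries in 276 (4.34%) and both day 16 ligand-free libraries in 106 (1.67%). In the remaining 77.1% no single group was apart. Over all genes tested, the day 17 ligand-free group was apart above in 2.24% and below in 1.61%, the day 16 treated group in 2.03% and 1.39%, the day 17 treated group in 1.04% and 1.03%, and the day 16 ligand-free group in 0.425% and 0.437%. The part that the high immediate early and stress gene levels of the ligand-free day 17 libraries had in the other responses was not tested.

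Neuronal genes were highest in the day 16 libraries with GW3965. Pan-neuronal markers summed to 3462 and 3406 CPM at day 16 and 5399 and 5345 with ligand, and to 2657 and 2677 CPM at day 17 and 2859 and 3077 with ligand. At day 16, 17 of 20 rose and 0 fell (1 at an unadjusted p of 0.05, 0 with DESeq2 or limma-voom), with a median of 0.67 on the log2 scale. At day 17, 9 rose and 4 fell, counts that depended on single libraries: 2 rose without the second day 17 GW3965 library, 5 without the second day 17 library, and 0 to 2 fell without any 1 of the 4. The difference was less positive at day 17 in 16 genes and more positive in 3, with a median of -0.52. In these bulk libraries, fewer cells of a type and less RNA per cell cannot be told apart.

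Snap25, a protein of synaptic vesicle fusion, went from 105 and 92.2 CPM to 177 and 169 at day 16 and from 71.9 and 73.8 to 53.4 and 63.5 at day 17. It rose 1.75-fold and fell 1.24-fold, a difference of -1.12 ± 0.12 (edgeR adjusted p = 6.69e-07). L1cam, an adhesion molecule of axons, went from 93.7 and 84.3 CPM to 169 and 182 and from 57.7 and 56.2 to 46.6 and 49.96. In both genes the treated day 16 libraries were above every other library. Nefm, a neurofilament subunit, was an exception, at 30.2 and 25.7, 20.03 and 14.8, 22.7 and 11.6 and 18.1 and 40.2 CPM in group order and a difference of 1.42, which was 0.72 and did not pass without the second day 17 GW3965 library.

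Markers of transmitter types followed. Of 13 GABAergic genes, 6 were less positive at day 17 and 0 more so (median -0.87, or -0.49 without the second day 16 GW3965 library), and of 14 glutamatergic genes 5 and 0 (median -0.66). Both counts of 0 held at an unadjusted p of 0.05, with DESeq2 and with limma-voom. Gad1 (chr2:70553072-70602014), which makes GABA, went from 41.2 and 39.9 CPM to 82 and 85.6 at day 16 and from 34.9 and 35.7 to 22 and 24.5 at day 17. It rose 2.07-fold and fell 1.51-fold, with no overlap between treated and ligand-free libraries at either day (difference -1.65 ± 0.12; edgeR adjusted p = 7.81e-09). Grin1, a subunit of NMDA receptors, rose 1.67-fold and fell 1.6-fold, and Gria2, a subunit of AMPA receptors, rose 1.44-fold and fell 1.54-fold. Slc17a6, a vesicular glutamate transporter, rose 1.77-fold at day 16 and did not pass the test at day 17 (-0.15 on the log2 scale).

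Progenitor and pluripotency genes differed between the days with the opposite sign to neuronal genes. Of 16 neural progenitor genes, 13 were more positive at day 17 and 0 less so (0 also at an unadjusted p of 0.05, with DESeq2 and with limma-voom; median 0.86). At day 16, 12 fell, but 4 without the first day 16 library and 5 without the second day 16 GW3965 library, and at day 17, 8 rose and 1 fell, with 5 rising without the second library of either day 17 group. Hes5, a Notch target that keeps progenitors dividing, stood at 19.4 and 13.8 CPM at day 16, 13.8 and 12.3 with ligand, 3.93 and 3.67 at day 17 and 14.5 and 21.5 with ligand. Its day 17 ligand-free libraries were below the rest (difference 2.58 ± 0.30; edgeR adjusted p = 1.6e-06).

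Of 18 pluripotency genes, 11 were more positive at day 17 and 2 less so, with a median of 1.65. At day 16, 11 fell and 1 rose, and at day 17, 7 rose and 3 fell. Without the first day 17 GW3965 library, the day 17 lean towards rises was lost. Lin28a, an RNA-binding protein of early embryonic cells, went from 45.8 and 26.4 CPM to 5.26 and 5.26 at day 16 and from 14.5 and 10.8 to 19.96 and 32.3 at day 17. Nanog, a core pluripotency factor, stood at 7.29 and 4.18, 0.666 and 0.827, 4.7 and 2.45 and 5.09 and 5.13 CPM in group order. Both were lowest in the treated day 16 libraries. Tdgf1, a coreceptor of Nodal, had a difference of 3.79 ± 0.35 and Lin28a of 3.78 ± 0.32.

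Markers of cells other than neurons moved with these groups. Mesenchyme and matrix genes summed to 17400 and 19540 CPM at day 16 and 10950 and 9260 with ligand, and to 16420 and 17500 CPM at day 17 and 16420 and 15230 with ligand. All 18 fell at day 16, and 17 fell without the second day 16 GW3965 library. At day 17, 4 rose and 5 fell, and 2 rose without the first day 17 GW3965 library. The difference was more positive at day 17 in 12 and less so in 2 (median 0.79). Col1a1 (chr11:94936224-94953042), a chain of type I collagen, went from 2893 and 3393 CPM to 1302 and 979.5 at day 16 and from 1471 and 1431 to 2135 and 2023 at day 17. The collagen thus fell 2.76-fold and rose 1.43-fold (difference 1.98 ± 0.22; edgeR adjusted p = 1.04e-06). Postn, a matrix protein of fibroblasts, fell 2.33-fold and rose 1.35-fold. The part that such cells had in the neuronal and progenitor values was not tested.

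Glial lists were mixed. Of 14 astrocyte genes, 5 were more and 2 less positive at day 17 (median 0.22, or 0.12 without the second day 16 GW3965 library). Gfap, the intermediate filament of astrocytes, stood at 562 and 589 CPM at day 16, 250.2 and 135 with ligand, 2178 and 2530 at day 17 and 1780 and 1276 with ligand. It fell 2.98-fold at day 16 and 1.54-fold at day 17, and day 17 levels were above all day 16 levels (difference 0.95, edgeR adjusted p = 0.00482, lost with DESeq2). Of 14 oligodendrocyte genes, 7 were more positive and 1 less (median 0.89), and 4 more without the second library of either day 17 group. Gpr17, a receptor of oligodendrocyte precursors, stood at 24.3 and 27.5, 25.6 and 26.9, 16.2 and 10.5 and 26.8 and 50.1 CPM in group order.

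The remaining marker lists were small or divided. Their counts stand beside 20% of all genes tested with a more positive and 17% with a less positive response at day 17. At day 16, 13% of all genes rose and 18.7% fell. Of 12 neural crest genes, 5 were more positive and 0 less (1 at an unadjusted p of 0.05, 0 with DESeq2 or limma-voom; median 0.43), and of 11 endothelial and blood genes, 3 and 3. Tie1, an endothelial receptor, stood at 3.12 and 2.3 CPM in the treated day 16 libraries and at 0.21 to 0.536 CPM in the other 6, and Cd93, an endothelial and myeloid surface protein, at 8.11 and 5.85 against 1.05 to 2.43 CPM. Of 16 endoderm genes, 4 were more and 3 less positive, and 2 more without any 1 of 3 libraries, namely either day 16 library or the first of day 17 GW3965. Afp, a fetal serum protein, rose 2.14-fold at day 16 with no change past the test at day 17 (0.07 on the log2 scale). Of 13 muscle genes, 6 were more positive (median 0.88), and 3 without the second day 16 library or with limma-voom. Of 20 inflammatory genes, 6 were more positive and 1 less (median 0.59), and at day 16, 14 fell and 1 rose, with 8 falling without the second day 16 GW3965 library and 9 without the second day 16 library.

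**Figure D4:**
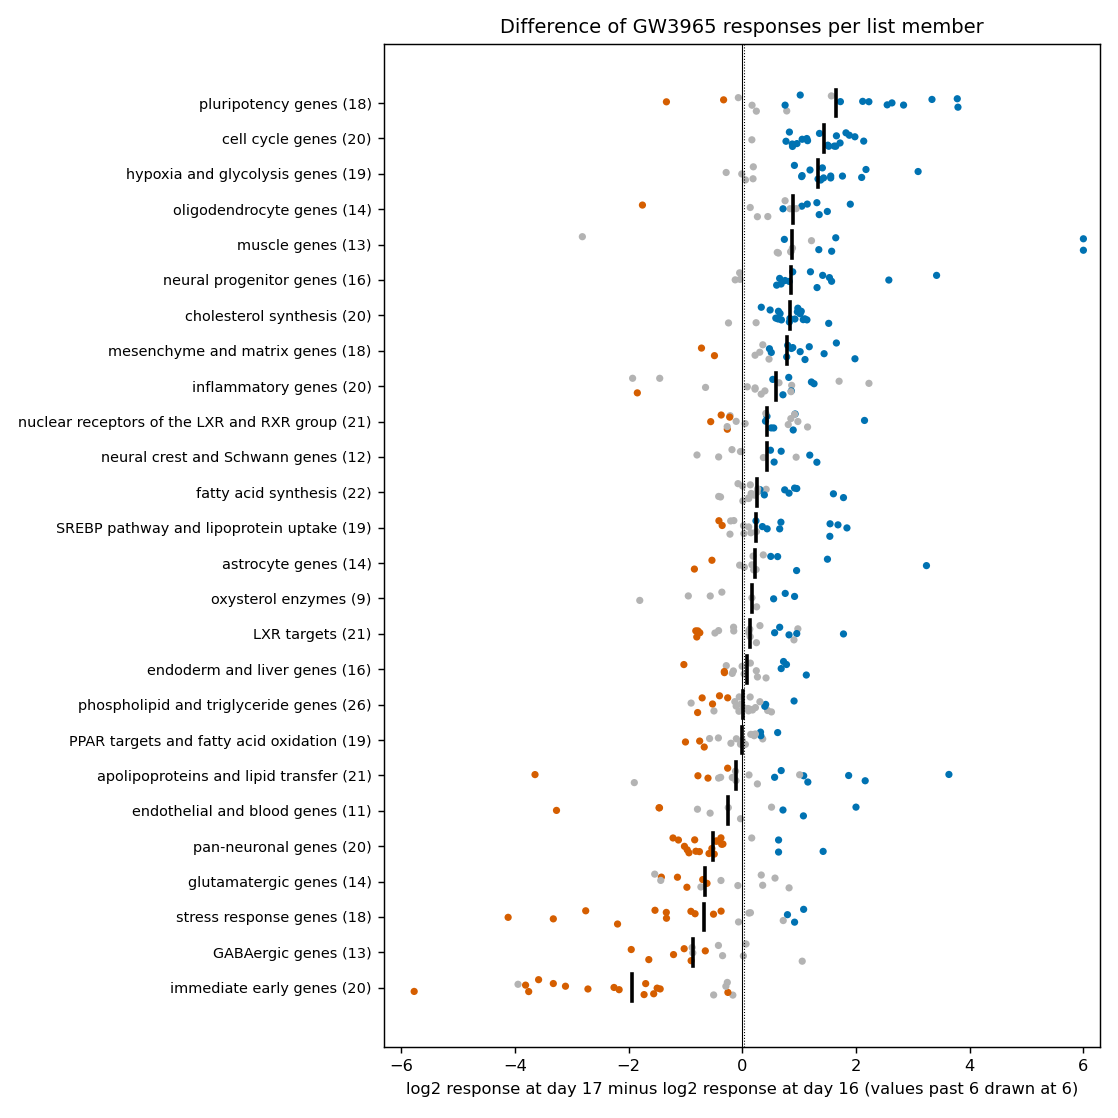
Each point is the log2 response at day 17 minus that at day 16 for 1 list member (x axis), blue where the difference passed the test above 0, orange where it passed below 0 and grey where it did not pass; black bars are list medians and the dotted line is the median of all genes. Medians run from 1.65 for pluripotency genes to -1.95 for immediate early genes, and values past 6 are drawn at 6.

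T, which encodes the mesoderm factor Brachyury, stood at 13.2 and 7.05 CPM at day 16, 0.242 and 0 with ligand, 1.41 and 2.62 at day 17 and 2.72 and 2.99 with ligand (difference 6.84 ± 0.66). Its level in the treated day 16 libraries was at most 0.242 CPM, so the size of that fall rests on few reads. Trh, the precursor of thyrotropin-releasing hormone, went from 25 and 18.8 CPM to 3.3 and 2.14 at day 16 and from 9.05 and 6.07 to 22.9 and 19.2 at day 17 (difference 4.43 ± 0.26). Otx2, a forebrain and midbrain factor, went from 11.1 and 8.87 to 2.69 and 1.65 and from 5.21 and 4.02 to 10.2 and 17.7 CPM (difference 3.76 ± 0.37). These 3 genes were lowest in the treated day 16 libraries.

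Among the most negative differences outside the lists, Trim66, of the tripartite motif family, stood at 3.79 and 3.55 CPM at day 16, 7.02 and 14.7 with ligand, 43.2 and 39.9 at day 17 and 2.1 and 2.86 with ligand (difference -5.63 ± 0.42). Apobr, a receptor for apolipoprotein B, stood at 49.6 and 38.5 CPM in the day 17 ligand-free libraries and at 2.1 to 5.59 CPM in the other 6 (difference -3.47 ± 0.30). Both were high in the ligand-free day 17 libraries.

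Some of the largest differences rested on single libraries or shared sequence. Myh3 and Myog, genes of embryonic muscle, stood at 0.658 and 23.1 and 0 and 4.82 CPM in the day 16 libraries and at 0.447 and 5.76 and 0.0893 and 2.69 CPM in the treated day 17 libraries, so that 1 library of each group carried the signal. Without the second day 16 library the Myog difference of 6.94 became -2.04. Rn45s had a difference of -3.57 ± 0.83, and its day 16 response fell to 0.31 without the second day 16 GW3965 library. Gm14436 stood at 6.61 to 8.29 CPM in the day 16 libraries and at most at 0.117 CPM at day 17, and 84.7% of its 50-base stretches occur in another gene. Apoa4, with 60.9% of such stretches shared, stood at 2.3 and 1.96 CPM in the treated day 16 libraries and at 16.1 to 30.9 CPM in the other 6.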

How the data were processed

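RNA-seq libraries of 18 samples in 9 groups of 2 were used in the fit, and 8 of them in the comparison. The deposited values are raw read counts per gene, and the submitters' processing notes name TopHat2 2.0.7, HTSeq 0.6.0, Cufflinks 2.0.2 and Cuffdiff 2.0.2 and the mm10 build. Annotation and strand setting are not given in the sources used here. Lines that name no gene were left out of library sizes. Unassigned reads (no feature) were 62.77 to 63.45% of day 16 files and 42.14 to 43.36% of day 17 files. The day 17 totals include the reads listed as aligned more than once. Without those reads the day 17 share was 63.4 to 63.61%, close to that of day 16.

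Counts were fitted in R 4.3.3 with edgeR 4.0.16 (TMM, filterByExpr, quasi-likelihood F test) over all 18 libraries, and p-values were adjusted by Benjamini-Hochberg over 17166 genes. A gene was called at an adjusted p of 0.05. Groups came from the sample labels and the length of exposure from the file names. The gene lists, and the comparison itself, were chosen with earlier results of these data known. Named genes are up to 12 of the largest called differences in each direction with 5 CPM or more in a group and response ranges that do not overlap between the days (56.9% of genes), up to 3 called members of each list, the 4 largest changes per direction and day, and a set of LXR pathway genes.

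On simulated counts for 17045 genes, this test recovered 0% of 50 genes changed 1.25-fold in the response difference, 52% at 1.5-fold, 84% at 2-fold and 98% at 4-fold, and 15 of its 132 calls (11.4%) were false. Same-numbered libraries correlated by -0.16 to 0.12 in their deviations from group means, so the numbers were not taken to pair libraries. Alternatives were no filter, a filter of 1 CPM in 4 libraries, size factors of the DESeq2 kind, DESeq2 1.42.0, limma-voom (limma 3.58.1), a replicate block, a fit of the groups compared, and leaving out each library. After the data were seen, a fit of genes with under 1% of their 50-base stretches in another gene and offsets for GC content and length were added. Gene positions are from GENCODE on mm10 and promoter windows from RefSeq GRCm38.p6; 23074 of 23420 gene symbols matched the reference (98.5%). Values of some single genes are not reported here.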

Additional observations from a re-analysis of the deposited data

Results flagged for a closer look

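The response to GW3965 differed between day 17 and day 16 in 6356 genes by edgeR's test of the difference itself, which is the result described above. Over all 17166 genes tested, 1483 were called in opposite directions at the 2 days. Choosing genes by the size of the difference favours such calls, so the count that follows is descriptive and no separate test. Among the 12 largest named differences in each direction, 13 genes were called in opposite directions at the 2 days. In 9 of these the response was lower at day 16 and higher at day 17: Fabp1 (log2 difference 4.79), Trh (4.43), Dmbt1 (4.00), Epyc (3.81), Tdgf1 (3.79), Lin28a (3.78), Otx2 (3.76), Crip1 (3.73) and Fgf15 (3.71). In 4 it was higher at day 16 and lower at day 17: Trim66 (-5.63), Trib3 (-4.12), Avil (-3.72) and Atf3 (-3.33). With 1 library left out, several of these genes did not pass the test at 1 of the days. At day 16 these were Trib3 (without the first day 16 library, or the second day 16 GW3965 library, where its log2 response was 0.19), Atf3 (without either day 16 library, or the second day 16 GW3965 library, where it was 0.12) and Avil (without the first day 16 library, 1.04). At day 17 they were Fabp1 and Dmbt1 (without the first day 17 library, 1.01 and 1.33, or the first day 17 GW3965 library, 0.86 and 1.21), Lin28a (without the second day 17 GW3965 library, 0.63) and Fgf15 (without the first day 17 library, 0.94, or the second day 17 GW3965 library, 0.68). Crip1 stood at 0.128 and 0 CPM at day 17 and at 0.58 and 0.757 CPM with ligand, so its day 17 rise rests on few reads. In the day 16 libraries Crip1 stood at 7.26 to 11.9 CPM. Day 17 files list 31.84 to 33.53% of reads as aligned more than once, reads that entered no gene count here, while the other 14 files list none.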

How the results depend on the processing

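The number of genes with different responses was 5246 to 6237 with 1 library left out at a time and 5984 to 6786 under the other settings, except for 3674 among genes with under 1% of their 50-base stretches shared, where fewer genes (9682) were tested. The day 16 count was 3589 to 4880 with 1 library left out, the lowest without the second day 16 GW3965 library, and 3232 among genes with little shared sequence. The day 17 count was 4335 to 4618 and 3286 in the same order. In ES cells it was 28 to 44 with 1 library left out, 164 with no filter, 369 in a fit of the groups compared and 30 among genes with little shared sequence; the cause was not tested. With the replicate number as a block the 4 counts were 6203, 5308, 5914 and 51, and the numbers were not taken to pair the libraries.

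Of 108 named genes, 101 were called in the difference, and 82 of these kept their call and direction in every setting that tested them, 51 of them in all 17 settings. The fit of genes with little shared sequence held 68 of the 108, the stricter filter 105 and the offsets 107. The Myog difference ran from -2.04 without the second day 16 library, a reversal, to 9.39 without the second day 17 library, and 1 library carries its day 16 signal. With 2 libraries a group, some small differences between the 2 responses may not have been detectable. In simulated counts, 52% of 1.5-fold differences were recovered. Those counts held few changed genes, so that share may not hold for the data, where 6356 genes were called.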
